A study of Mus musculus with 7 samples.

Results

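Naive B cells travel between blood, lymph node, spleen and lymphatic vessels under the direction of a small set of G protein-coupled receptors. The genes for 6 of them, Cxcr4, Cxcr5, Ccr7, Ccr6, S1pr1 and Gpr183, were followed through every RNA sequencing library of a study of primary mouse B cells. They were chosen by name as homing and egress receptors and are 6 of the 11633 genes that were named in 1 library or more. Wild-type B cells of C57BL/6 mice received anti-IgM plus BAFF ("both"), anti-IgM alone or BAFF alone, each for 8 h or 30 h, or were taken unstimulated at 0 h. Anti-IgM is an antibody that crosslinks the B cell antigen receptor, and BAFF is a TNF family cytokine on which mature B cells depend for survival. Each of the 7 conditions was 1 library. There is no estimate of variation between cultures or mice, and no statistical test between conditions could be made. Because every cultured library had a stimulus, effects of culture time and of stimulus cannot be told apart in the comparisons with 0 h.

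The receptors divide the work of B cell traffic. CCR7 follows CCL19 and CCL21 into lymph nodes and toward the T cell zone, and CXCR5 follows CXCL13 into the follicle. GPR183, also called EBI2, follows an oxysterol to the outer edge of the follicle and to its border with the T cell zone. CXCR4 follows CXCL12 and holds cells in bone marrow and, in germinal centres, in the dark zone. CCR6 follows CCL20, a chemokine of mucosal epithelium, and marks memory precursors and B cells below the intestinal lining. S1PR1 senses sphingosine 1-phosphate, which is abundant in blood and lymph, and draws cells out of lymphoid organs.

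The deposited values were FPKM, fragments scaled by transcript length and by mapped fragments, with a lower and an upper bound that were read as 2 SD of counting error. The FPKM of a gene, the sum of its transcripts, is a level per unit of transcript length, so genes can be compared with each other. Reads recovered from the files came to 18.75 to 28.6 M per library (M, 1000000 reads), and 580.1 to 17219.9 of them lay on the exons of a receptor in a library. All 6 receptors were assembled in all 7 libraries. A gene was counted as different when log2(FPKM + 1) differed by at least 1, the intervals did not overlap and 1 of the libraries held at least 1 FPKM. The same 28 of 90 pairs of receptor and comparison, 7 higher and 21 lower, were counted when reads over exons replaced FPKM. The 2 measures come from the same reads and are not independent, and the 90 pairs share the same 7 libraries. Of all pairs of gene and comparison, 15.5% were counted for stimulated against unstimulated libraries and 11.0% for anti-IgM against BAFF. For both stimuli against 1 stimulus the share was 8.0%, and for 30 h against 8 h it was 11.2%. Over all genes the median difference lay between -0.12 and 0.12 on this log2 scale in the 15 comparisons.

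As a check of the labelled cell type, 10 of 11 B cell markers were assembled in every library. Cd79a alone had no named transcript, although reads lay on its exons in every library. The summed level of the B cell markers, without Cd79a, was 2520 FPKM in the unstimulated library. It was 1614, 1354 and 2488 FPKM with both, anti-IgM and BAFF at 8 h, and 2112, 2235 and 2910 FPKM in the same order at 30 h. At each time the libraries with anti-IgM were thus below the one with BAFF alone. Of 11 T cell markers 2 to 5 were assembled, with sums of 5.27 to 15.6 FPKM, and among the markers that define T cells Cd3d and Cd3e were assembled in no library. Cd3g was assembled with anti-IgM at 30 h (1.62 FPKM), Cd8a in the unstimulated library (3.15 FPKM), and Cd4 in the unstimulated library (4.62 FPKM) and with BAFF at 30 h (1.14 FPKM). The neutrophil sum was at most 3.50 FPKM and the NK cell sum at most 8.20 FPKM. Dendritic cell markers summed to 44.9 to 85.6 FPKM, with Bst2, an interferon-induced gene that is also transcribed outside dendritic cells, as the highest in every library. Bst2 was at 25.4 FPKM in the unstimulated library and at 28.5 to 64.3 FPKM in the cultured ones. Itgax fell from 16.5 FPKM to 1.88 FPKM with anti-IgM at 8 h and was not assembled in the other cultured libraries. Clec9a (7.42 FPKM) and Cd209a (2.68 FPKM) were assembled in the unstimulated library only. Flt3 was at 6.84 FPKM there and at 6.43 to 11.3 FPKM in the cultured libraries. The macrophage and monocyte markers moved with culture too. Their 14 genes summed to 320.0 FPKM in the unstimulated library, then to 22.2 (both), 30.0 (anti-IgM) and 28.9 FPKM (BAFF) at 8 h, and to 82.1, 126 and 118 FPKM in the same order at 30 h. Single markers did not all follow the sum. C1qa, a complement gene that macrophages make, was at 40.3 FPKM in the unstimulated library, was not assembled at 8 h, and was at 1.77, 2.60 and 5.08 FPKM with both, anti-IgM and BAFF at 30 h. Marco was at 3.46, 9.57 and 4.51 FPKM at 30 h in the same order, against 1.93 FPKM in the unstimulated library. Sirpa with anti-IgM (49.9 against 26.0 FPKM), Emr1 with BAFF (48.2 against 32.8 FPKM) and Lyz2 with anti-IgM and with BAFF (16.8 and 19.8 against 16.3 FPKM) also lay above the unstimulated level at 30 h.

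By reads over exons the macrophage sum was 349 reads per kilobase and M reads in the unstimulated library, 317, 308 and 23.2 with both, anti-IgM and BAFF at 8 h, and 239, 95.3 and 72.5 in the same order at 30 h, so the low 8 h sums with both and with anti-IgM were not seen by this measure. Cd68 alone held 303 of the 317 and 295 of the 308. No transcript named Cd68 was assembled in any library, and exons of Cd68 also lie in a transcript named Eif4a1, a translation factor, so its reads cannot be told from those of Eif4a1. Without Cd68, a choice made after seeing these values, the sum was 259 in the unstimulated library, 14.0, 12.6 and 18.9 at 8 h and 64.2, 87.2 and 66.8 at 30 h. What part other cells had in the receptor values against the unstimulated library was not tested. In bulk RNA, fewer cells of a type and less RNA per cell cannot be told apart.

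The 4 receptors that were counted in any comparison each had a pattern of its own. Cxcr4 was lower with every stimulus and lower again at 30 h. S1pr1 was lower in every library that had received anti-IgM and within 2-fold of the unstimulated level with BAFF alone. Ccr7 was higher with every stimulus at 8 h and within 2-fold of the unstimulated level at 30 h. Ccr6 was higher in the 30 h libraries that had received anti-IgM. Cxcr5 and Gpr183 were counted in no comparison.

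**Figure D1:**
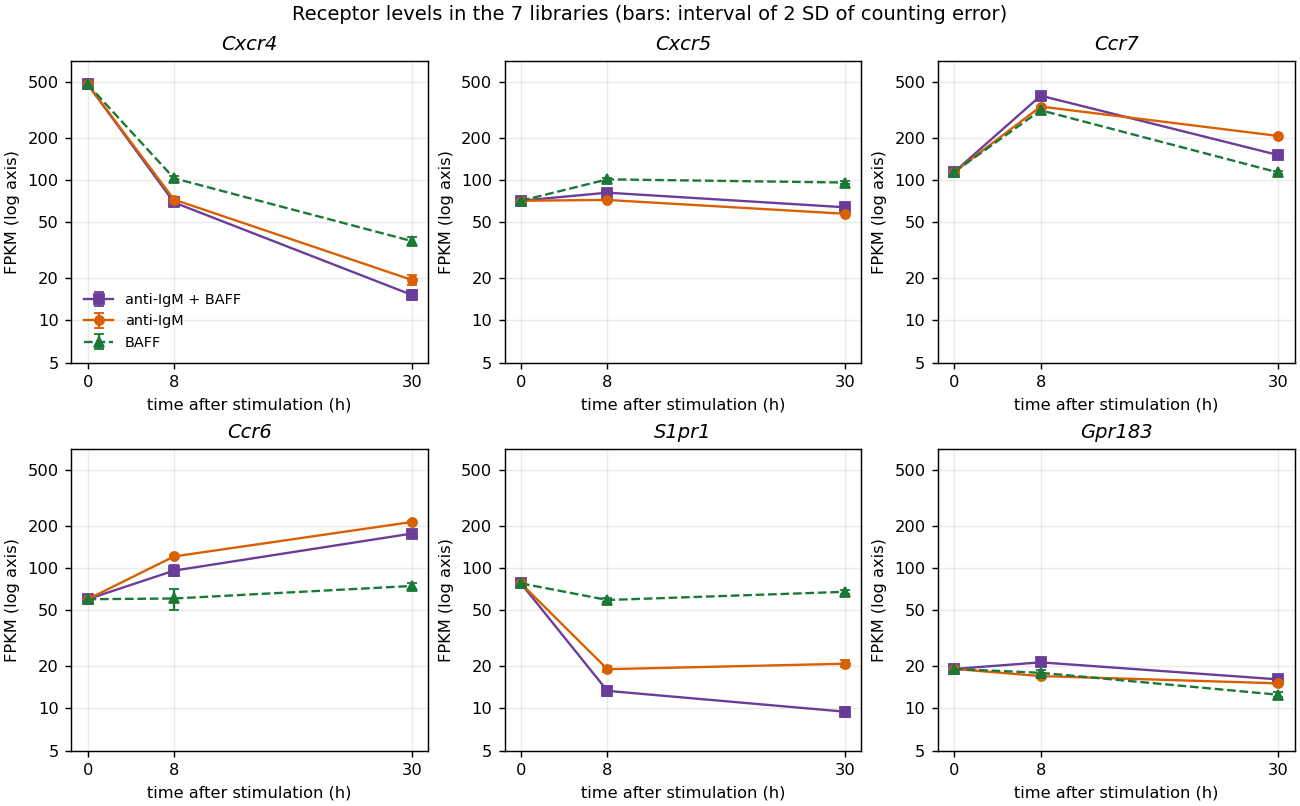
FPKM (log axis) of each receptor gene against hours after stimulation, 1 library per point, with bars for the interval of 2 SD of counting error; squares are both stimuli, circles anti-IgM and triangles BAFF, and all 3 lines start at the same unstimulated library. Cxcr4 declines from 479 FPKM at 0 h in every line, S1pr1 separates the BAFF line from the other 2, and Cxcr5 and Gpr183 stay nearly level.

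Against the unstimulated library, both stimuli at 8 h gave 1 higher and 2 lower receptors of 6, where 12.3% of all genes compared were counted higher and 8.85% lower. Anti-IgM at 8 h gave 1 higher and 2 lower, where 10.7% of genes were higher and 10.5% lower. BAFF at 8 h gave 1 higher and 1 lower, where 5.62% of genes were higher and 4.29% lower. At 30 h, both stimuli gave 1 higher and 2 lower (8.34% and 7.76% of genes), anti-IgM gave 1 higher and 2 lower (8.45% and 7.27% of genes), and BAFF gave 0 higher and 1 lower (5.17% and 4.09% of genes). The 2 lower receptors were Cxcr4 and S1pr1 each time, and the single lower one with BAFF was Cxcr4. A single receptor is already a larger share of 6 than any of these percentages, so a count of 1 says little beyond which gene it was. The 6 comparisons share 1 control library, whose own error enters all of them.

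Between the stimuli, anti-IgM against BAFF gave 0 higher and 1 lower receptor at 8 h (4.89% and 8.41% of genes), and 1 higher and 1 lower at 30 h (3.99% and 4.68% of genes). Both stimuli against anti-IgM alone gave 0 of either kind at 8 h (4.37% higher and 1.86% lower genes), and 0 higher and 1 lower at 30 h (2.12% and 3.27% of genes). Both stimuli against BAFF alone gave 0 higher and 1 lower at 8 h (5.64% and 6.77% of genes), and 1 higher and 2 lower at 30 h (3.0% and 5.07% of genes). S1pr1 was counted lower in 5 of these 6 comparisons, Cxcr4 was the second lower receptor for both stimuli against BAFF at 30 h, and the higher one was Ccr6. Over time, 30 h against 8 h gave 0 higher and 2 lower receptors with both stimuli (5.6% and 6.95% of genes), 0 and 1 with anti-IgM (7.99% and 5.36% of genes), and 0 and 2 with BAFF (3.64% and 4.18% of genes). These were Cxcr4 with every stimulus and Ccr7 with both stimuli and with BAFF.

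**Figure D2:**
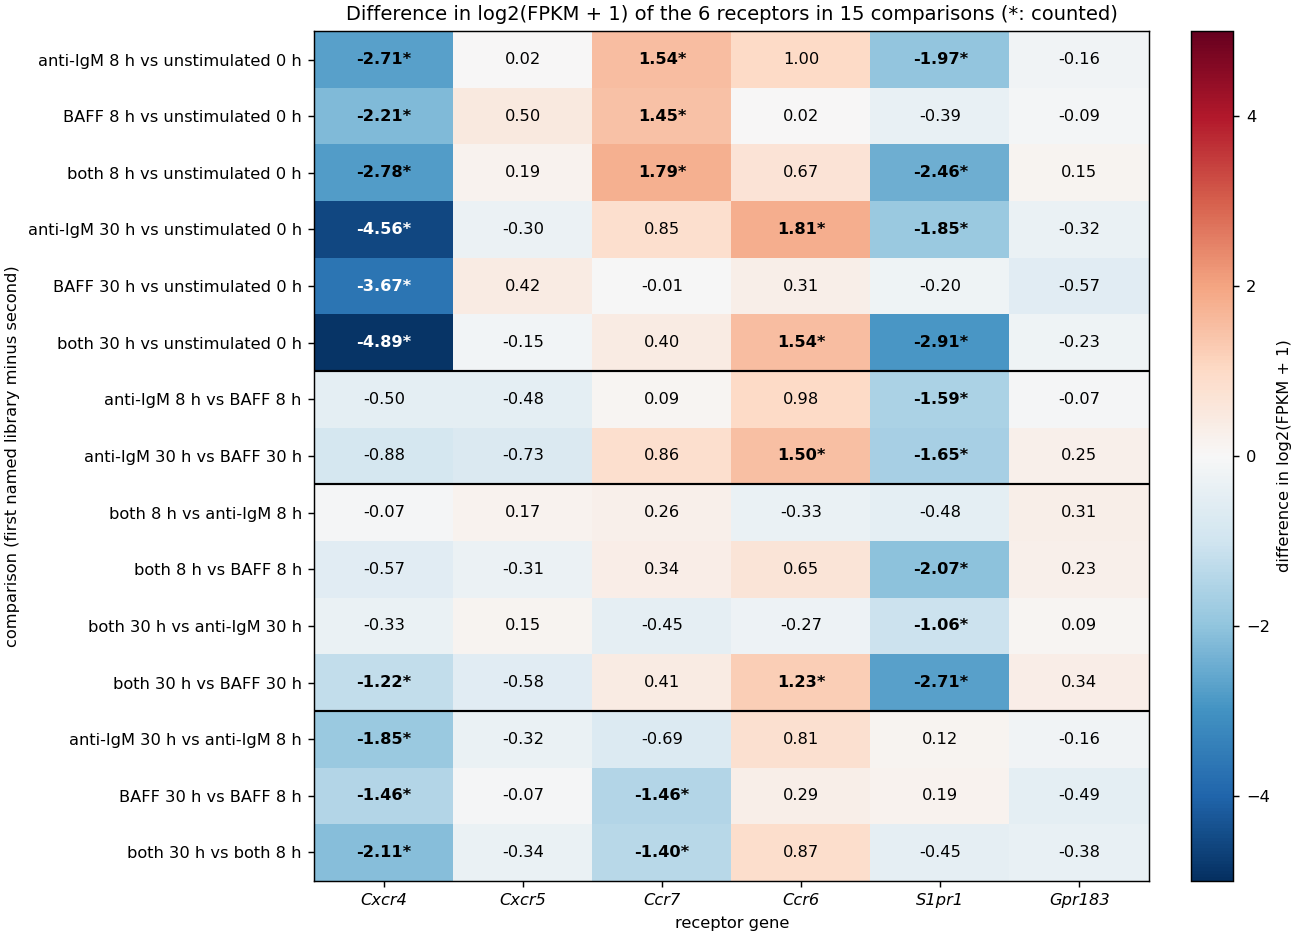
Difference in log2(FPKM + 1), first named library minus second, for the 6 receptor genes (columns) in the 15 comparisons (rows); bold values with an asterisk met the counting rule. Cxcr4 has 10 asterisks, all negative, S1pr1 has 9, all negative, Ccr7 has 5 and Ccr6 has 4, and the columns of Cxcr5 and Gpr183 have none.

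S1pr1, the egress receptor, lies on the minus strand of chromosome 3 at chr3:115710433-115715055 (mm10). Its level was 77.6 FPKM in the unstimulated library. At 8 h it was 13.3 FPKM with both stimuli, 19.0 with anti-IgM and 59.1 with BAFF, and at 30 h it was 9.48, 20.8 and 67.6 FPKM in the same order. The 4 libraries with anti-IgM lay together at the bottom, and the 3 without it at the top, with no overlap of intervals between the sets. Within the lower set, the intervals of anti-IgM at 8 h and at 30 h overlapped.

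Against the unstimulated library, S1pr1 differed by -2.46 (interval -2.57 to -2.34) with both stimuli and by -1.97 with anti-IgM at 8 h, and by -2.91 and -1.85 at 30 h, all counted lower. BAFF alone gave -0.39 at 8 h and -0.20 at 30 h, neither counted. Both values for BAFF change sign, to 0.24 and 0.45, when the most abundant transcript stands for the gene. The direct comparison of the single stimuli does not use the unstimulated library: anti-IgM against BAFF gave -1.59 at 8 h and -1.65 at 30 h. Anti-IgM added to BAFF, that is both stimuli against BAFF alone, gave -2.07 at 8 h and -2.71 at 30 h. Among all genes compared, 0.398% had a lower difference than S1pr1 in the first of these 2 comparisons and 0.0802% in the second. For anti-IgM against BAFF the share was larger, 2.05% at 8 h and 0.979% at 30 h. B cell markers had lower medians than all genes in the same comparisons. Anti-IgM against BAFF at 8 h gave 0 higher and 4 lower of 10 (8.41% of all genes were lower). The median was -0.96, against -0.05 over all genes. Both stimuli against BAFF at 8 h gave 0 higher and 3 lower of 10 (6.77% of all genes), with a median of -0.76 against 0.01. At 30 h anti-IgM against BAFF gave 0 and 1 (4.68% of all genes were lower), with a median of -0.53 against 0.003. Both stimuli against BAFF at 30 h gave 0 and 2 (5.07% of all genes were lower), with a median of -0.58 against -0.04. A count of 1 of 10 says little beside such shares. The macrophage marker sums at 8 h were 22.2, 30.0 and 28.9 FPKM with both, anti-IgM and BAFF, and 317, 308 and 23.2 by reads over exons with Cd68 included. Without Cd68 the sums by reads over exons were 14.0, 12.6 and 18.9. The part of either cell type in the S1pr1 differences was not tested.

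BAFF added to anti-IgM went with a further reduction of S1pr1. The difference between both stimuli and anti-IgM alone was -0.48 at 8 h, where the intervals did not overlap but the difference was under the threshold, and -1.06 at 30 h, which was counted lower. The 30 h value lies just past the threshold and was -0.83, no longer counted, with a pseudocount of 5. Over time S1pr1 moved little: 30 h against 8 h gave -0.45 with both stimuli, 0.12 with anti-IgM and 0.19 with BAFF. S1pr1 was also assembled in unlike forms. The transcripts that covered the gene in the cultured libraries had 2869 to 3103 bases. The unstimulated library had 2 transcripts, and the longer one had 6928 bases and reached past both ends of the annotated gene. Reads over the annotated exons gave 62.5 reads per kilobase and M reads with BAFF at 30 h, against 63.7 in the unstimulated library. They were recovered from the assembled transcripts and shared out evenly along them, so this measure also depends on the assembled form.

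Cxcr4, the receptor for CXCL12, lies at chr1:128588199-128592299 on the minus strand (mm10). It was the most abundant of the 6 receptors in the unstimulated library, at 479 FPKM. At 8 h it was at 69.0 FPKM with both stimuli, 72.3 with anti-IgM and 103 with BAFF, and at 30 h at 15.2, 19.4 and 36.7 FPKM in the same order. Every 30 h library was below every 8 h library, and every 8 h library below the unstimulated one, with no overlap between the times. The highest level was 31.6 times the lowest. Of 8948 genes assembled in all libraries with at least 5 FPKM in 1 of them, 0.123% had a wider range on the log2 scale. The median gene had a range of 1.01.

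On the log2 scale Cxcr4 differed from the unstimulated library by -2.78, -2.71 and -2.21 at 8 h and by -4.89, -4.56 and -3.67 at 30 h with both, anti-IgM and BAFF, and all 6 were counted lower. From 8 h to 30 h, where the unstimulated library plays no part, the differences were -2.11 with both stimuli, -1.85 with anti-IgM and -1.46 with BAFF, again all counted lower. The macrophage marker sum was 82.1, 126 and 118 FPKM at 30 h, against 22.2, 30.0 and 28.9 FPKM at 8 h with the same stimuli. By reads over exons with Cd68 included it was 239, 95.3 and 72.5 at 30 h, against 317, 308 and 23.2 at 8 h, and so lower at 30 h with both stimuli and anti-IgM. Without Cd68, a choice made after seeing the values, it was 64.2, 87.2 and 66.8 at 30 h, against 14.0, 12.6 and 18.9 at 8 h, and so higher at 30 h with every stimulus. Its part in the Cxcr4 values was not tested. The stimuli differed less than the times did. Anti-IgM against BAFF gave -0.50 at 8 h and -0.88 at 30 h, with intervals apart but under the threshold. Both stimuli against anti-IgM gave -0.07 at 8 h, with overlapping intervals, and -0.33 at 30 h. Both stimuli against BAFF gave -0.57 at 8 h and -1.22 at 30 h, and the second was counted lower, but was -0.95 and not counted when the most abundant transcript stood for the gene.

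The Cxcr4 transcripts differed in their first exon. Both stimuli at 30 h had a single form. In the 5 other cultured libraries 2 forms were assembled, whose 5′ ends lay at the same base or a few bases apart, and the minor form made up 11.5% to 18.6% of the locus. The unstimulated library had 2 forms with the same 3′ end and with 5′ ends at 128592194 and 128592336 on chromosome 1, and the shorter one made up 46.7% of the locus. No piece inside the Cxcr4 intron was assembled in a cultured library, which at their lower levels does not show absence. In the unstimulated library 2 such pieces held 205.0 reads, or 0.999% of the exon level per length. The RefSeq window from 250 bases before to 50 bases after the Cxcr4 start (GRCm38.p6, chr1:128592250-128592549, minus strand) holds the 5′ end of the longer form, and the shorter form begins beyond its downstream edge. It is shown because the first exon differed between libraries, and capitals mark the only match to CACCC, letters that KLF factors bind.
Cxcr4: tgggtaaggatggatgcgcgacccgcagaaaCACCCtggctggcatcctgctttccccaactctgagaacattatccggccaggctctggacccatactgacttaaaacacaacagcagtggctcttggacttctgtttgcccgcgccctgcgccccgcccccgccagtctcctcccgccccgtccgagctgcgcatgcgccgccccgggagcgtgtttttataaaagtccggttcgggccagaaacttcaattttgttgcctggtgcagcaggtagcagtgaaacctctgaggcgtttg

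CACCC, searched on both strands, occurs in 57.5% of 32851 RefSeq windows of the same length, so 1 match is common. GTAAACA, the letters bound by FOXO factors, has no match in the Cxcr4 window and occurs in 3.65% of windows. A match describes letters and is not evidence of binding.

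Ccr7, the receptor that leads B cells toward the T cell zone, lies at chr11:99144199-99155077 on the minus strand (mm10). Its level was 114 FPKM in the unstimulated library. It was 397 FPKM with both stimuli, 332 with anti-IgM and 313 with BAFF at 8 h, and 150.0, 205 and 113 FPKM in the same order at 30 h. The 3 libraries at 8 h were the highest 3, and BAFF at 30 h and the unstimulated library had overlapping intervals at the bottom. With 397 FPKM, Ccr7 was the most abundant of the 6 receptors at 8 h, a place that Cxcr4 held at 0 h.

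The differences from the unstimulated library were 1.79, 1.54 and 1.45 at 8 h with both, anti-IgM and BAFF, all counted higher, and 0.40, 0.85 and -0.01 at 30 h, none counted. Anti-IgM and BAFF gave nearly the same level at 8 h, with a difference of 0.09 (interval 0.06 to 0.12). At 30 h the difference was 0.86, with anti-IgM above BAFF but under the threshold. Later libraries were lower: 30 h against 8 h gave -1.40 with both stimuli and -1.46 with BAFF, both counted, and -0.69 with anti-IgM, not counted. Both stimuli against anti-IgM gave 0.26 at 8 h and -0.45 at 30 h, and against BAFF they gave 0.34 and 0.41, none counted. Only the unstimulated library had a transcript on the strand opposite to Ccr7, a form of 4 exons and 9485 bases at 13.2 FPKM, and the Ccr7 transcript then made up 68.9% of the locus. The strand of a read was not known, so reads from the overlap of these 2 transcripts could be given to either.

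Ccr6, the receptor for CCL20, lies at chr17:8236043-8257129 on the plus strand (mm10). Its level was 59.9 FPKM in the unstimulated library, 95.7 with both stimuli, 121 with anti-IgM and 60.6 with BAFF at 8 h, and 176, 212 and 74.4 FPKM in the same order at 30 h. The 2 libraries with anti-IgM at 30 h were the highest, followed by the 2 with anti-IgM at 8 h, and then BAFF at 30 h. BAFF at 8 h and the unstimulated library overlapped, the interval with BAFF at 8 h being wide at 50.2 to 71.0 FPKM.

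The differences from the unstimulated library were 0.67, 1.00 and 0.02 at 8 h and 1.54, 1.81 and 0.31 at 30 h with both, anti-IgM and BAFF. Both 30 h values with anti-IgM in the culture were counted higher. The value for anti-IgM at 8 h rounds to 1.00 but lies just under the threshold, and it was counted at 1.01 with a pseudocount of 0.1 and at 1.61 with the most abundant transcript. Both stimuli at 8 h were counted higher, at 1.44, with transcripts of any length, and BAFF at 8 h was -0.67 with the most abundant transcript. Anti-IgM against BAFF gave 0.98 at 8 h, just under the threshold, and 1.50 at 30 h, counted higher. The 8 h value was counted at 2.28 with the most abundant transcript and at 1.08 with overlap on either strand, whereas the 30 h value was 0.83 and not counted with overlap on either strand. Both stimuli against BAFF gave 0.65 at 8 h and 1.23 at 30 h, and the second was counted higher. The 8 h value was counted at 1.42 with transcripts of any length and at 1.37 with the most abundant transcript, and the 30 h value was 0.97 and not counted with overlap on either strand. Both stimuli against anti-IgM gave -0.33 at 8 h and -0.27 at 30 h, neither counted. The first was 0.44 with transcripts of any length, and the second 0.02 with the most abundant transcript and 0.14 with overlap on either strand. From 8 h to 30 h the differences were 0.87 with both stimuli, 0.81 with anti-IgM and 0.29 with BAFF, none counted. With the most abundant transcript both stimuli (1.06) and BAFF (1.02) were counted higher, and both stimuli also with overlap on either strand (1.19) and with median-ratio scaling (1.01).

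Ccr6 had the most complex assembly of the 6 genes, with 3 to 5 transcripts of at least 300 bases in a library and several starts. Starts within 0.477 kb upstream of the annotated first base carried 29.8 FPKM in the unstimulated library. They carried 81.6 FPKM with both stimuli, 0 transcripts with anti-IgM and 28.3 FPKM with BAFF at 8 h, and 176, 188 and 53.0 FPKM in the same order at 30 h. Starts 6.33 to 9.04 kb into the gene were assembled in the unstimulated library (24.0 FPKM) and with anti-IgM (33.3 FPKM) and BAFF (25.7 FPKM) at 8 h, and in no 30 h library. Starts 15.3 kb or more into the gene carried 87.4 of the 121 FPKM with anti-IgM at 8 h, against 6.06 FPKM in the unstimulated library. At 30 h most of the Ccr6 level was thus in assembled transcripts from the upstream start, 100% with both stimuli, 88.4% with anti-IgM and 71.3% with BAFF. Each library was assembled separately, and a first base can be the edge of an incomplete assembly. Whether the starts are true transcription starts was not tested.

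**Figure D3:**
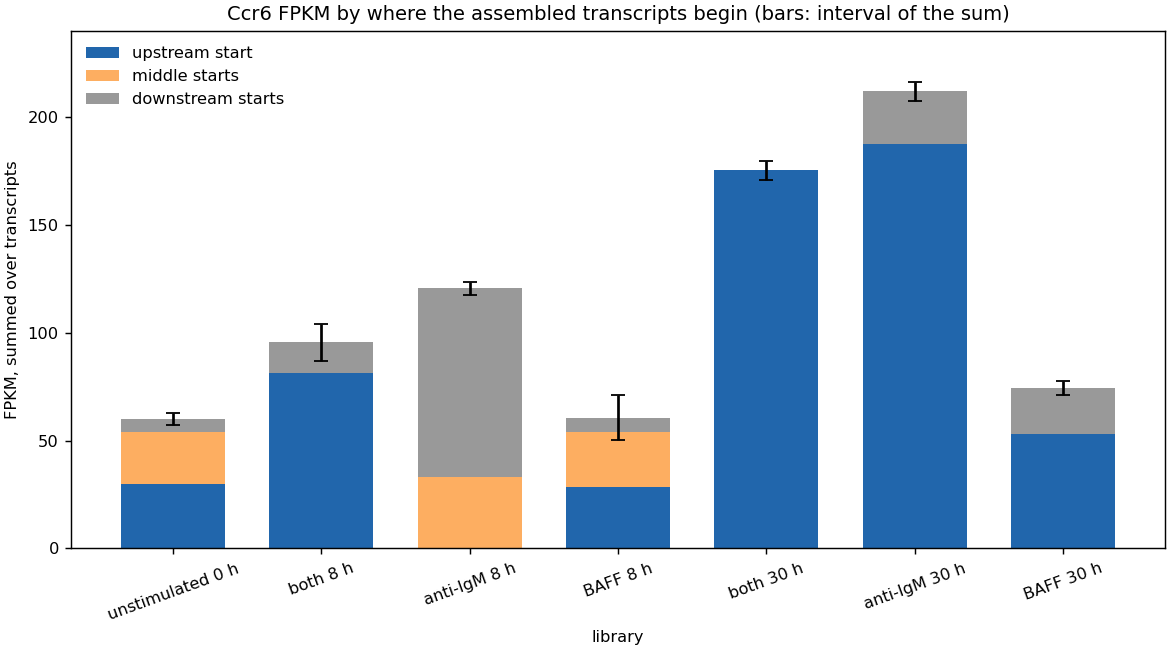
Ccr6 FPKM in each library, stacked by where the assembled transcripts begin; bars start at 0 and the error bars are the interval of the summed level. The 30 h libraries with both stimuli and with anti-IgM are made up mostly of transcripts from the upstream start (176 and 188 FPKM), which was not assembled with anti-IgM at 8 h. Whether an assembled first base is a true transcription start was not tested.

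RefSeq also has 2 start windows for Ccr6, both on the plus strand of GRCm38.p6. They are shown because transcripts began at or near each of them in different libraries, and capitals mark matches to the kappaB consensus, the site of NF-kappaB. Downstream here means downstream of the other window only. The first of the starts 6.33 to 9.04 kb into the gene lies in the downstream window. The starts 15.3 kb or more into the gene lie beyond both windows.
Ccr6 upstream start, chr17:8235793-8236092: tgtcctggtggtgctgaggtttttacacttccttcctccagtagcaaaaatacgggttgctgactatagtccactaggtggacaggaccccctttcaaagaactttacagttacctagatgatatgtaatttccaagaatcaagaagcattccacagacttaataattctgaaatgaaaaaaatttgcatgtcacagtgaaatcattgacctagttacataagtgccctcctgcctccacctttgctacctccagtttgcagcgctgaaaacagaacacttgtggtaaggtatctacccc
Ccr6 downstream start, chr17:8242276-8242575: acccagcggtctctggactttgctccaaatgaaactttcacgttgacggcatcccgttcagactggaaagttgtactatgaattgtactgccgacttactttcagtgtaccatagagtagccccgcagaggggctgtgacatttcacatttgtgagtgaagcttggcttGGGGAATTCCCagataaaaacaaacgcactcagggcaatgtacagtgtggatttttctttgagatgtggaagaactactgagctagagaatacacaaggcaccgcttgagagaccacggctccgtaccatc

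The downstream window holds overlapping kappaB matches whose first bases lie 81 and 80 bases before the annotated start, and the upstream window holds none. A match to this consensus on either strand occurs in 8.46% of the 32851 windows. The transcript that began at 8242369 with anti-IgM at 8 h starts inside the downstream window, at 33.3 FPKM. Its first base lies before the kappaB matches, so they are not upstream of this assembled start. Both stimuli at 8 h had a spliced piece of 185 bases that began at 8242512 in the same window, after the matches. That piece was too short to be used. In the other libraries no transcript named Ccr6 began in that window. CACCC and GTAAACA had no match in either Ccr6 window.

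Cxcr5, which brings B cells into follicles, lies at chr9:44511787-44526421 on the minus strand (mm10). Its level was 71.0 FPKM in the unstimulated library, 81.0 with both stimuli, 71.9 with anti-IgM and 101 with BAFF at 8 h, and 63.8, 57.3 and 95.7 FPKM in the same order at 30 h. The highest library was 1.76 times the lowest, and 64.8% of the same 8948 genes had a wider range. The 2 libraries with BAFF alone were the highest, apart from the others by their intervals. Anti-IgM against BAFF gave -0.48 at 8 h and -0.73 at 30 h, and both stimuli against BAFF gave -0.31 and -0.58, all under the threshold. A single transcript of 2 exons was assembled in each library. The neighbouring gene Bcl9l, on the plus strand, reached into the 3′ end of Cxcr5 in 5 of the libraries, at 7.05 to 12.5 FPKM.

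Gpr183, the oxysterol receptor, lies at chr14:121952331-121965193 on the minus strand (mm10), inside an intron of Ubac2 on the plus strand. It had the lowest level of the 6 in the unstimulated library, at 19.1 FPKM. It was at 21.3 FPKM with both stimuli, 17.0 with anti-IgM and 17.9 with BAFF at 8 h, and at 16.1, 15.1 and 12.5 FPKM in the same order at 30 h. The highest was 1.70 times the lowest, and 71.1% of the same 8948 genes had a wider range. Most neighbours in the order of levels had overlapping intervals, but both stimuli at 8 h stood above the rest and BAFF at 30 h below the rest. The lowest difference was -0.57, for BAFF at 30 h against the unstimulated library. Ubac2 itself was at 17.1 to 37.5 FPKM. The RefSeq window of its start (GRCm38.p6, chr14:121965144-121965443, minus strand) holds no match to the kappaB consensus, CACCC or the FOXO letters and is not printed.

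**Figure D4:**
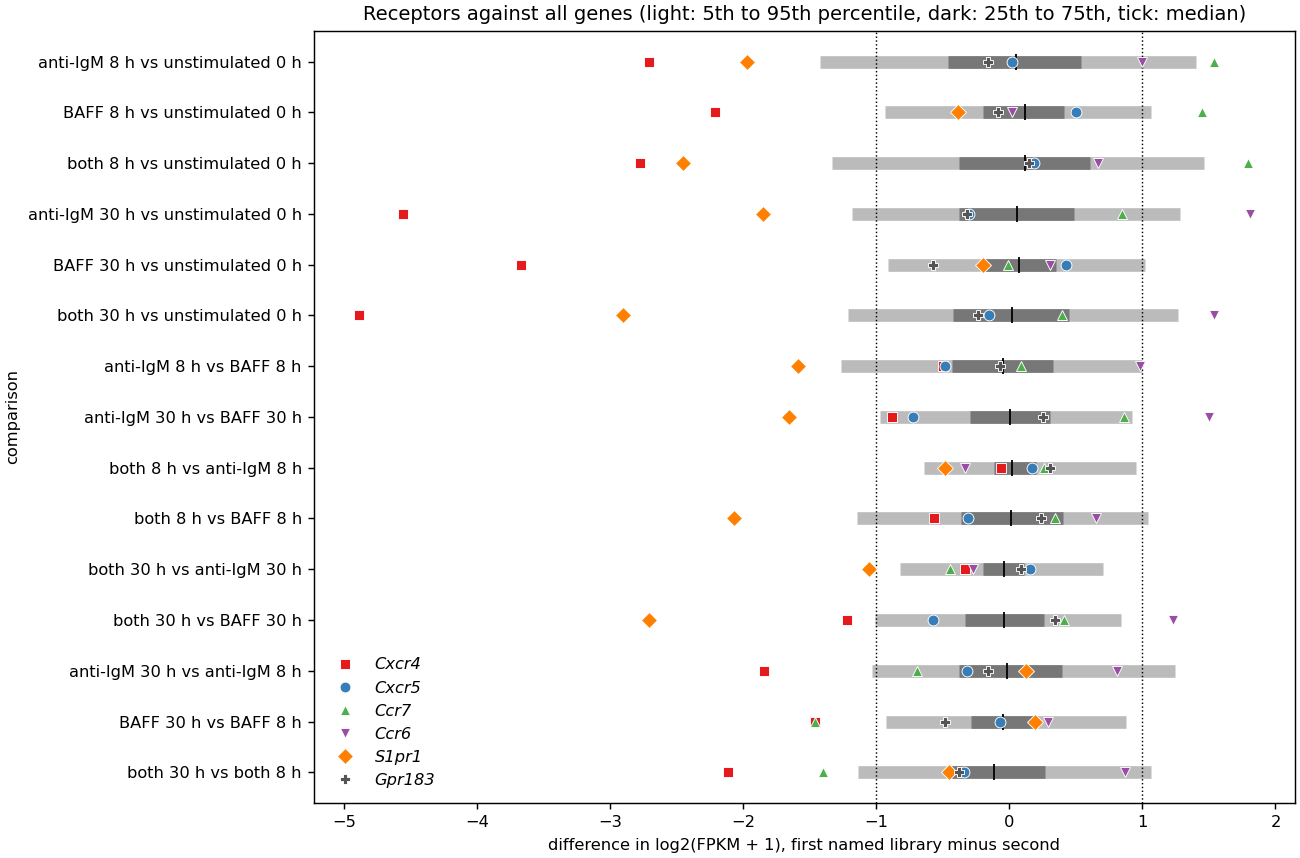
Difference in log2(FPKM + 1) of the 6 receptors (symbols) in each of the 15 comparisons (rows), over the 5th to 95th percentile (light bar), the 25th to 75th percentile (dark bar) and the median (tick) of all genes compared; dotted lines mark a difference of 1 either way. Cxcr4 lies left of the light bar in all 6 comparisons with the unstimulated library, and S1pr1 in the 4 that had anti-IgM.

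Set side by side, the receptors changed rank. With both stimuli at 30 h the order from high to low was Ccr6, Ccr7, Cxcr5, Gpr183, Cxcr4 and S1pr1, at 176, 150.0, 63.8, 16.1, 15.2 and 9.48 FPKM. With BAFF alone at 30 h it was Ccr7, Cxcr5, Ccr6, S1pr1, Cxcr4 and Gpr183, at 113, 95.7, 74.4, 67.6, 36.7 and 12.5 FPKM. In the unstimulated library it was Cxcr4, Ccr7, S1pr1, Cxcr5, Ccr6 and Gpr183, at 479, 114, 77.6, 71.0, 59.9 and 19.1 FPKM. Cxcr4 and S1pr1 were thus at the bottom with both stimuli at 30 h, and Ccr6 was at the top by FPKM only. By reads over exons Ccr7 (135 reads per kilobase and M reads) was above Ccr6 (124) in that library. By the same measure S1pr1 (62.5) was above Ccr6 (48.5) with BAFF at 30 h, and Cxcr5 (67.8) was above S1pr1 (63.7) in the unstimulated library.

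The receptors work with partners that retain, desensitize or transmit. CD69 binds S1PR1 and takes it off the cell surface, and RGS proteins shorten the signal of G protein-coupled receptors. Of 18 genes of a list of such regulators, 0 were higher and 7 lower of 16 compared with both stimuli at 8 h, 0 and 8 of 17 with anti-IgM, and 0 and 5 of 17 with BAFF, against the unstimulated library. The list medians were -0.84, -0.91 and -0.48, against 0.11, 0.05 and 0.12 over all genes. Of all genes compared 8.85%, 10.5% and 4.29% were lower with both, anti-IgM and BAFF at 8 h, and 7.76%, 7.27% and 4.09% at 30 h. In the same order 12.3%, 10.7% and 5.62% were higher at 8 h, and 8.34%, 8.45% and 5.17% at 30 h. These are the shares to set beside the lower and higher counts of this and the following lists. At 30 h the counts were 1 and 4 of 17 with both, 1 and 7 of 17 with anti-IgM, and 0 and 4 of 17 with BAFF, with medians of -0.51, -0.70 and -0.29. Cd69 was at 84.3 FPKM in the unstimulated library, at 38.4, 40.0 and 22.9 FPKM with both, anti-IgM and BAFF at 8 h, and at 11.0, 8.60 and 12.3 FPKM at 30 h. Each of these 6 levels was counted lower than the unstimulated one. Rgs1 was at 88.7 FPKM in the unstimulated library, at 25.1, 31.1 and 15.4 FPKM at 8 h and at 6.49, 14.3 and 11.4 FPKM at 30 h, and was likewise counted lower in all 6. Rgs2 was lower in all 6 comparisons too, with differences of -1.73 to -3.00. These genes, like Cxcr4, fell with every stimulus, BAFF alone included. Rgs14 was at 5.20, 6.57 and 18.7 FPKM with both, anti-IgM and BAFF at 8 h, against 39.7 FPKM in the unstimulated library.

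Molecules of adhesion and homing were read beside the receptors. Of the 17 listed genes, 1 was higher and 6 lower of 15 compared with both stimuli at 8 h, 0 and 6 of 15 with anti-IgM, and 1 and 3 of 14 with BAFF, against the unstimulated library, with medians of -0.85, -0.58 and -0.07. At 30 h the counts were 2 and 6, 0 and 5, and 1 and 2 of 15, with medians of -0.62, -0.27 and -0.20. Itgb7, a chain of the gut-homing integrin, was at 55.5 FPKM in the unstimulated library, at 1.81 and 3.09 FPKM with both and anti-IgM at 8 h, and at 7.23, 10.4 and 31.0 FPKM at 30 h. It was not assembled with BAFF at 8 h. Cd22, a B cell lectin that restrains the antigen receptor, was at 50.1, 50.8 and 167 FPKM with both, anti-IgM and BAFF at 8 h, against 353 FPKM in the unstimulated library. Vcam1, an adhesion ligand that is also among the macrophage markers, was at 1.79 to 5.23 FPKM in the cultured libraries and at 48.6 FPKM in the unstimulated one.

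G proteins and motility genes gave 0 higher and 9 lower of 31 compared with both stimuli at 8 h, 0 and 9 of 31 with anti-IgM, and 0 and 0 of 31 with BAFF, against the unstimulated library, with medians of -0.39, -0.40 and -0.19. At 30 h the counts were 0 and 4, 0 and 4, and 1 and 1 of 30, with medians of -0.17, -0.21 and -0.17. Fewer were thus lower at 30 h with both stimuli and with anti-IgM, but not with BAFF. Gnai2, the inhibitory G protein through which chemokine receptors signal, was counted in no comparison and lay between 148 and 277 FPKM. Rasgrp2, an exchange factor that activates RAP1 in integrin adhesion, was at 225 FPKM in the unstimulated library, at 15.4, 11.3 and 157 FPKM with both, anti-IgM and BAFF at 8 h, and at 18.0, 22.7 and 68.7 FPKM at 30 h. Anti-IgM against BAFF gave -3.69 for Rasgrp2 at 8 h. Gng2, a G protein subunit, was at 9.13, 8.63 and 25.9 FPKM with both, anti-IgM and BAFF at 8 h, against 45.4 FPKM in the unstimulated library. Arhgef1, which links G proteins to RHOA, was counted in 7 of the 15 comparisons and was highest with BAFF at 30 h, at 969 FPKM. Each transcript took the name of a single gene, so this level can hold reads of a neighbouring gene. That part was not tested.

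Of 31 other migration receptors, 9 to 13 were compared in each comparison with the unstimulated library, and 16 were compared in none of the 15 comparisons. At 8 h, 1 was higher and 4 lower of 9 with both stimuli, 0 and 4 of 9 with anti-IgM, and 0 and 2 of 12 with BAFF, with medians of -0.89, -0.67 and -0.29. At 30 h the counts were 2 and 4 of 12, 2 and 5 of 13, and 1 and 2 of 12, with medians of -0.84, -0.58 and -0.41. S1pr4, a second sphingosine 1-phosphate receptor of lymphocytes, was at 40.7 FPKM in the unstimulated library. It was at 17.7, 16.4 and 33.5 FPKM with both, anti-IgM and BAFF at 8 h, and at 14.7, 19.4 and 29.9 FPKM at 30 h. As for S1pr1, the libraries with anti-IgM were below those with BAFF alone. The differences of S1pr4 from the unstimulated library at 8 h were -1.16, -1.26 and -0.27 with both, anti-IgM and BAFF. S1pr3, unlike S1pr1, was lowest with BAFF, at 1.13 FPKM at 8 h and 1.78 FPKM at 30 h, against 12.3 FPKM in the unstimulated library. S1pr2, the receptor that confines germinal centre B cells, was at 2.92 FPKM or below in the libraries that had it, and Cxcr3 at 1.95 FPKM or below. Ccr1, a receptor for inflammatory chemokines, was at 21.4, 14.7 and 7.05 FPKM with both, anti-IgM and BAFF at 30 h, all 3 counted higher than the 2.55 FPKM of the unstimulated library. Most ligands of the 6 receptors were not seen: Cxcl12, Cxcl13, Ccl19, Ccl20, and the oxysterol enzymes Ch25h and Cyp7b1 had no named transcript in any library.

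Transcription factors that are known to control these receptors were given in the same way. KLF2 activates S1pr1 in lymphocytes, and FOXO1 acts on Klf2 and Ccr7. Against the unstimulated library at 8 h, 4 of 20 listed regulators were higher and 8 lower with both stimuli, anti-IgM gave 3 higher and 6 lower, BAFF gave 3 higher and 5 lower, with medians of -0.28, -0.27 and -0.11. At 30 h the counts were 3 and 8, 2 and 8, and 0 and 5 of 20, with medians of -0.56, -0.26 and -0.49. Klf2 was at 158 FPKM in the unstimulated library, at 18.7, 18.8 and 58.0 FPKM with both, anti-IgM and BAFF at 8 h, and at 22.8, 28.1 and 81.4 FPKM at 30 h. Klf2 was counted lower in every one of these comparisons but BAFF at 30 h (-0.94), whereas S1pr1 was counted only where anti-IgM was present. Anti-IgM against BAFF gave -1.58 for Klf2 and -1.59 for S1pr1 at 8 h, and -1.50 and -1.65 at 30 h. Foxo1 was at 63.4 FPKM in the unstimulated library, at 23.8, 30.1 and 48.7 FPKM at 8 h, and at 23.5, 23.5 and 44.3 FPKM at 30 h. Rel, an NF-kappaB subunit, was at 39.2 FPKM in the unstimulated library, at 143, 140.0 and 85.6 FPKM at 8 h and at 105, 114 and 48.9 FPKM at 30 h. Ccr7 was high at 8 h in the same 3 libraries as Rel, but at 30 h Ccr7 had gone back toward its unstimulated level while Rel was still counted higher with both stimuli and with anti-IgM. Egr1, an early response factor, was at 14.7 to 61.6 FPKM in the cultured libraries and at 264 FPKM in the unstimulated one. Myc was at 143 FPKM in the unstimulated library, at 264, 263 and 64.7 FPKM at 8 h and at 59.9, 61.2 and 29.8 FPKM at 30 h. The part of Klf2, Rel or any other of these factors in the receptor levels was not tested.

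**Figure D5:**
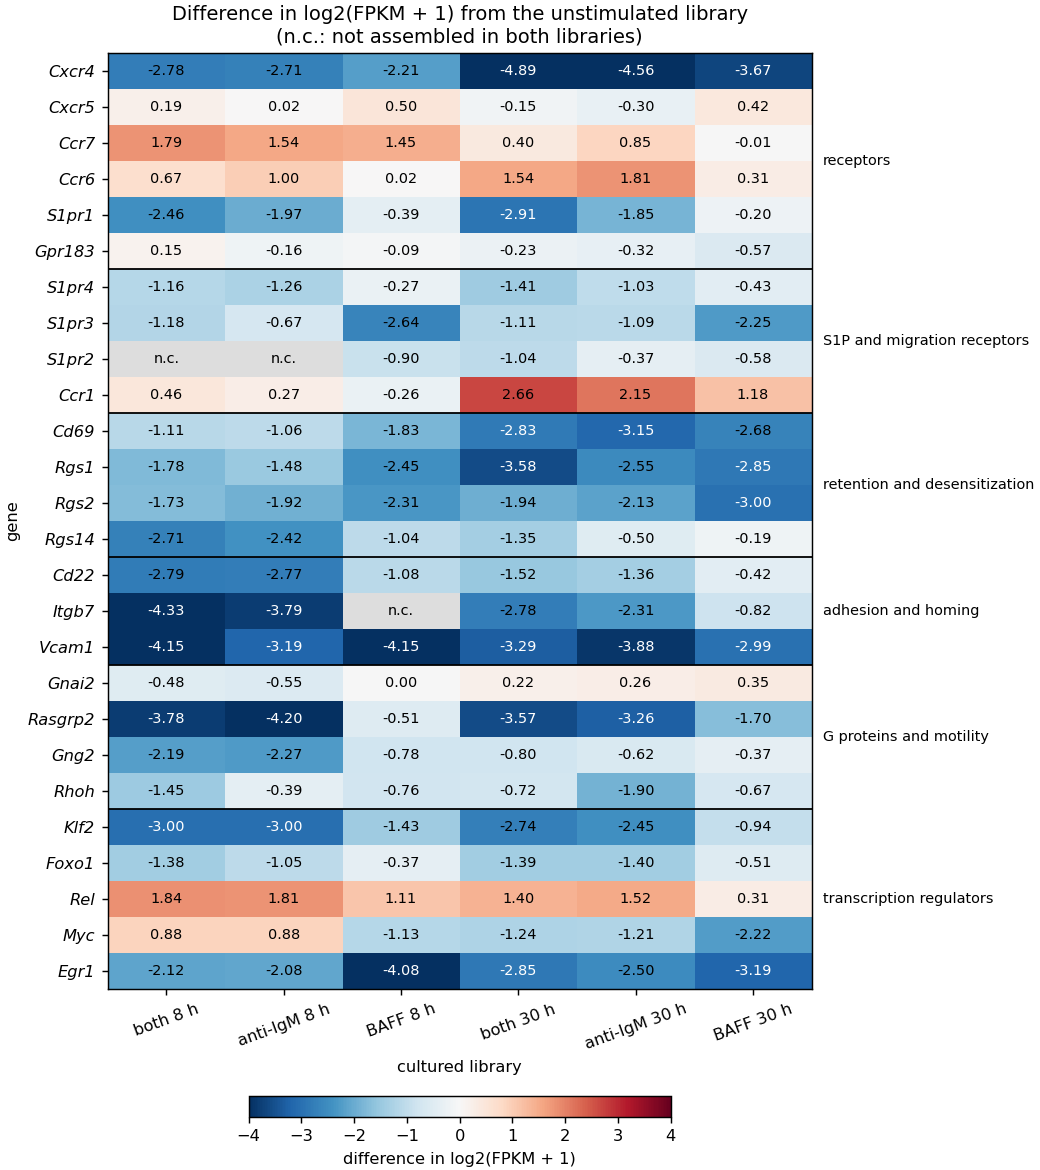
Difference in log2(FPKM + 1) from the unstimulated library for the 6 receptors and for genes of 5 lists (rows) in the 6 cultured libraries (columns), blue for lower and red for higher; n.c. marks a gene that was not assembled in both libraries. Rasgrp2, Klf2 and S1pr1 are darker blue with both stimuli and anti-IgM than with BAFF at 8 h, and Cd69, Rgs1 and Rgs2 are blue in all 6 columns.

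The genes whose profile over the 7 libraries lay nearest to each receptor were found by the root mean square distance of centred log2(FPKM + 1). The search covered 8337 genes assembled in all libraries with at least 5 FPKM in 1 of them, without Ig segments, small RNAs and predicted genes. For Cxcr4 these were Il1b (distance 0.45), Dusp1 (0.49) and Tsc22d3 (0.53), against a median distance of 1.56 over all genes. Dusp1 was at 4.26 to 12.1 FPKM in the cultured libraries and at 91.2 FPKM in the unstimulated one. For S1pr1 they were Phf1 (0.31), Hhex (0.35) and Acss1 (0.38). Hhex, a homeobox factor, was at 70.1 FPKM in the unstimulated library, at 15.8, 15.6 and 50.3 FPKM with both, anti-IgM and BAFF at 8 h, and at 16.6, 16.4 and 61.4 FPKM at 30 h. For Ccr6 they were Ccnd2 (0.17), D10Jhu81e (0.18) and Orc1 (0.18), and Ccnd2, a cyclin of the G1 phase, was at 59.6, 66.2 and 26.5 FPKM with both, anti-IgM and BAFF at 30 h, against 18.1 FPKM in the unstimulated library. For Ccr7 they were Cebpz (0.19), Rxra (0.22) and Tgif1 (0.23). The nearest to Cxcr5 and Gpr183 were Bcl9 and Slc35e2 at 0.07 and 0.08, but both receptors have flat profiles, for which the median distance to all genes was only 0.42 and 0.39.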

How the data were processed

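Per the labels, RNA of primary B cells was purified with the RNeasy kit, reverse transcribed from poly-dT primers and made into Illumina TruSeq libraries. Per the submitters' processing notes, CASAVA 1.8.2, TopHat2 2.0.5, Bowtie2 2.0.0.7, Cufflinks 2.0.2 and Cuffdiff were used with mm10. The annotation and parameters are not given in the sources used here. The deposited values are FPKM per assembled transcript with their bounds. Transcripts were assembled by the authors in each library separately, so gene models differ between libraries. A merged transcript set, deposited by the authors, holds no values.

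Transcripts were named by exon overlap on the same strand with a named gene of the merged set (bedtools 2.31.1). FPKM was summed over transcripts of at least 300 bases, since shorter pieces held 66.6% to 74.4% of summed FPKM. Half-widths of intervals were combined as the root of summed squares. Mapped reads were recovered from FPKM, bounds and lengths: 94.7% to 95.7% of pieces with at most 50 reads came out whole within 0.05. Reads over exons were calculated from every piece, on either strand, per kilobase and M reads (M, 1000000 reads). Counting error is the only error covered.

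Beside the 6 receptors, named genes were up to 4 per list, those counted in the most of the 15 comparisons, plus Klf2, Foxo1, Cd69, Rgs1, Gnai2, S1pr2, S1pr4 and Cxcr3, and the 3 nearest genes of each receptor. One other gene under this rule is not reported here. The receptors and lists were chosen with earlier results of these data known. The 10 alternatives covered the pseudocount, the filter, scaling, transcript length and choice, intervals, strand and reads over exons. Promoter sequences are from RefSeq on GRCm38.p6 and matched 3 of the 6 genes. The scripts ran on Python 3.11.15, with pandas 2.3.3, numpy 2.4.6 and, for figures, matplotlib 3.10.9.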

Additional observations from a re-analysis of the deposited data

Results flagged for a closer look

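Pieces inside the introns of Ccr6, which the levels above do not use, were drawn out for a closer look because their level was above that of the unstimulated library in 5 of the 6 cultured libraries. Unstranded pieces in 19007 intron bases came to 1.5 reads per kilobase and M reads (M, 1000000 reads) with both stimuli, 3.0 with anti-IgM and 0.828 with BAFF at 8 h, and to 1.55, 1.24 and 1.4 with both, anti-IgM and BAFF at 30 h, against 0.882 in the unstimulated library. As a share of the Ccr6 exon level these were 2.21%, 3.93% and 2.09% at 8 h and 1.24%, 0.827% and 2.89% at 30 h, against 2.20% in the unstimulated library. Some pieces may be exons of Ccr6 that the annotation does not hold, which was not tested.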

How the results depend on the processing

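No paired analysis was possible because each condition was 1 library and the samples carry no replicate numbers, and no replicate could be left out. Under the 10 alternatives the receptors counted were 15 to 16 pairs for stimulated against unstimulated libraries (15 as reported), 3 to 4 for anti-IgM against BAFF (3), 4 to 6 for both stimuli against 1 (5) and 5 to 7 for 30 h against 8 h (5). As reported, these were counts out of 36, 12, 24 and 18 pairs, where 15.5%, 11.0%, 8.0% and 11.2% of all pairs of gene and comparison were counted. No counted difference changed sign. Of 15 changes of a call, 13 were of Ccr6, whose FPKM is spread over several transcripts, and 1 each of Cxcr4 and S1pr1, as given above. Of the Ccr6 changes 2 were calls lost, both at 30 h against BAFF alone, and 11 were calls gained. Scaling by median ratios (factors 0.9299 to 1.0522) added 1 call, Ccr6 at 30 h against 8 h with both stimuli (1.01), and changed the sign of uncounted values, Cxcr5 with anti-IgM (-0.12), Ccr6 with BAFF (-0.10) and Gpr183 with both (-0.02), each at 8 h against the unstimulated library. The counts over all genes, 544 to 2084 per comparison, depended more on the settings: 195 to 1298 with a pseudocount of 5, and 316 to 2002 with the most abundant transcript. With reads over exons they were 182 to 2097, while the receptors counted were unchanged. Each receptor had 580.1 to 17219.9 reads over its exons in a library, but variation between cultures was not measured.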
